A study of Mus musculus with 4 samples.

Results

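Axon guidance ligands and receptors were examined in the mouse mammary tumour line 4TO7, in cells that overexpressed the microRNA cluster miR-23b/27b/24 or carried the vector alone. The members were the genes whose name on the array matched the semaphorins (Sema3 to Sema7), the plexins (Plxn), the ephrins (Efn) and their Eph receptors, the Slits, the Robo receptors or the netrins (Ntn). The array held 59 such genes among 27671 gene names, and 53 of them were measured, meaning that the cell RNA gave a signal well above background on both arrays of at least 1 group. Both groups were 4TO7 lines of the strain BALB/cfC3H that stably carried the retroviral vector pMSCV-puro, empty in the control group and with the miR-23b/27b/24 cluster in the other. Each group had 2 arrays, which the series calls transfection replicates, and the labels do not say whether a line was a clone or a pool. Cell RNA carried Cy5, and each array also held Cy3-labelled Universal Mouse Reference RNA pooled from 11 lines, so each value below is a log2 ratio of cells over that reference unless a signal is named. Mature microRNAs are not read by this array, and the level of the cluster was not checked.

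Axon guidance genes encode secreted or membrane-bound cues and the receptors that read them. Semaphorins signal through plexins, of which the secreted class 3 members mostly need neuropilins as co-receptors; ephrins are membrane-bound ligands of the Eph receptor tyrosine kinases; Slits bind Robo receptors; and netrins bind Dcc, neogenin and the Unc5 receptors. Outside the nervous system the same families act on cell adhesion, motility, branching of the mammary gland and the growth of blood vessels, and many of them are studied in tumours.

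Mature strands of miR-27b and miR-24 are shown because they are the agents compared here, with the seed (bases 2 to 8), the part that pairs with a target, in capitals. They are RefSeq sequences from chromosome 13 of GRCm38.p6, at chr13:63300760-63300780 and chr13:63301251-63301272 on the plus strand; miR-23b-3p is named only.
mmu-miR-27b-3p: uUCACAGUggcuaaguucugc
mmu-miR-24-3p: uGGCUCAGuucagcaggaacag
The match to the miR-27b seed, ACTGTGA, lay in 3 of the 109 probes of the guidance genes (2.75%), against 0.826% of all 41174 gene probes, and the match to the miR-24 seed, CTGAGCC, in 0 of 109, against 0.42% of all. The stretches that hold the miR-27b match (capitals) are shown in the orientation of the probe, all in mm7 coordinates, at chr10:79971766-79971792 (plus strand) for Efna2, chr8:8588071-8588097 (minus strand) for Efnb2 and chr11:68308168-68308184 (minus strand) for Ntn1.
Efna2: gcaagtgtatACTGTGAtttattttaa
Efnb2: tctatgctaaACTGTGAagaatcggat
Ntn1: ACTGTGAttcctattgc
The probes of Efna2 and Efnb2 differed between the groups by 0.22 and 0.57 on the log2 scale, both higher in the miR-23b/27b/24 cells and neither past the test, and that Ntn1 probe was not well above background. A probe is a 60-base piece of a transcript, so most of each transcript was not searched, and a match is a string of letters and not a known target site.

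The share of probes well above background in Cy5 ran from 69.9% to 74.8% per array. The log2 ratios of all genes correlated at 0.887 between the vector arrays and at 0.952 between the miR-23b/27b/24 arrays. The mammary epithelial markers Krt8, Krt18, Krt7, Krt19, Epcam and Cdh1 were well above background on all 4 arrays, and 4 of the 6 fell in the miR-23b/27b/24 cells (Krt7, Krt19, Epcam and Cdh1). The flag for signal above background is permissive: the leukocyte gene Ptprc carried it on all arrays at log2 ratios between -5.82 and -5.72, as did 3 of 6 endothelial and 5 of 6 neuronal markers, so a guidance gene with the flag has signal and is not shown to be made in quantity. The endothelial markers tested had log2 fold changes between -0.16 and -0.02 and the neuronal ones between -0.51 and 0.07, and none passed the test. Of the other markers, the mesenchymal gene Sparc rose by 1.29 (limma adjusted p = 0.0218) and the leukocyte gene Cd68 fell, with a log2 fold change of -1.68 (limma adjusted p = 0.00676).

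Compared with the vector cells, the miR-23b/27b/24 cells had more Sema3b, Sema7a and Ntn1 transcript and less Sema3e, Efna1, Epha1 and Slit2. These 7 of 53 measured guidance genes passed the test, limma over all genes with a Benjamini-Hochberg adjusted p under 0.05, 3 higher and 4 lower. That is 13.2%, beside 9.43% of all 20514 genes tested (4.78% higher and 4.66% lower), so the share lies near the background. The median log2 fold change of the measured guidance genes was 0 to 2 decimals, against -0.03 over all genes. By size, 5 of 53 differed at least 2-fold (9.43%), against 8.19% of all genes, so this share too lies near the background. The 5 are Sema3b, Sema7a, Sema3e, Epha1 and Epha4, and Epha4 entered the test only through the vector arrays, where it was high. Ligands made up 6 of the 7, from 31 measured, and receptors 1, from 22 measured. A measured gene had to be detected in 1 group, so these counts describe the measured genes and not the families. In bulk RNA, fewer cells of a kind and less RNA per cell cannot be told apart.

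Leaving out 1 array moved the count, for guidance genes and for all genes alike. Without miR-23b/27b/24 replicate 1 or replicate 2 only Sema3b passed, and without vector replicate 1 or 2 there were 12 and 9 guidance genes; the shares of all genes were 1.08% and 1.15%, then 22.4% and 13.3%. With every local background as measured 2 passed (Sema3b and Sema3e), beside 3.1% of all genes, while without background correction the same 7 passed. With median centring 3 passed, 2 higher and 1 lower, which is 5.66% beside 6.16% of all genes. The log ratio of the scanner software also gave 7 genes, 2 higher and 5 lower, beside 9.3% of all genes. Epha4 stood there in place of Ntn1. Epha4 entered the test only through the vector arrays, so its call, there and without vector replicate 1 or 2, is not read. The counts given for these settings include it. The mean of a gene's probes gave 7 with Sema3g in place of Slit2, 4 higher and 3 lower, beside 9.79% of all genes.

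**Figure D1:**
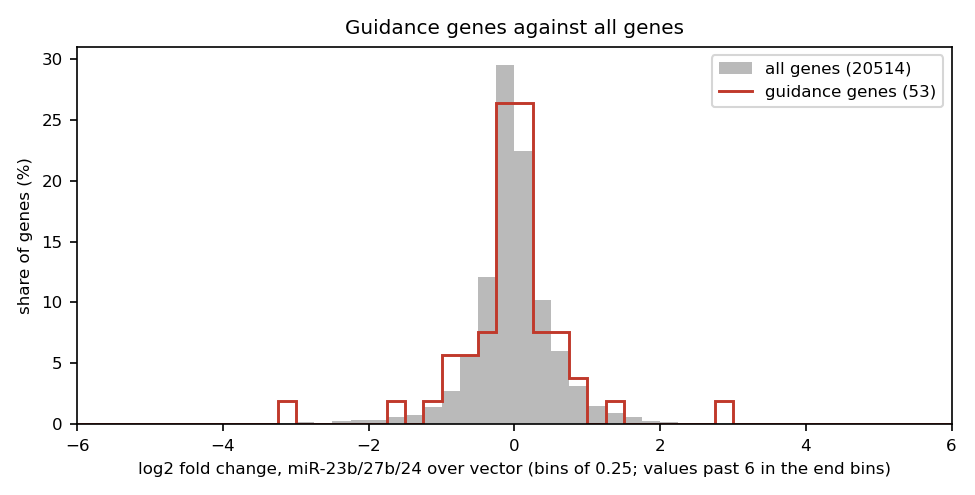
Share of genes (y axis, percent) by log2 fold change of miR-23b/27b/24 over vector cells (x axis, bins of 0.25) for all 20514 genes (grey) and the 53 measured guidance genes (red line). Most guidance genes lie in the same central bins as all genes, with Sema3b at 2.81 and Epha4 at -3.07 farthest out.

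Semaphorins held the largest rise. Sema3b, a secreted class 3 semaphorin that binds neuropilins, gave log2 ratios of -0.25 and -0.42 in the vector cells and 2.20 and 2.77 in the miR-23b/27b/24 cells. The vector cells thus lay just below the reference RNA and the miR-23b/27b/24 cells well above it, with no overlap. The difference was 2.81 ± 0.22 (SE, n = 2 in each group, with limma an adjusted p of 0.0065), which is 7.02-fold. Its spot signal in Cy5 was 582 and 496 on the vector arrays and 3857 and 6489 on the others, while the Cy3 signal of the reference stayed between 849 and 1028. Over 17 alternative settings Sema3b passed in all, with log2 fold changes between 2.53 and 3.20 and adjusted p between 0.00387 and 0.0408. Its only probe spans 107328009 to 107328068 of chromosome 9 (mm7), and for no probe here was the exon determined.

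Sema7a rose as well. It encodes a semaphorin tethered to the membrane by a lipid anchor, which binds plexin C1 and beta 1 integrins. The log2 ratios were 0.23 and 0.35 in the vector cells and 1.45 and 2.01 in the miR-23b/27b/24 cells. Both vector arrays lay close together and the others apart from each other but above them. The difference was 1.44 ± 0.22 (SE, n = 2 in each group, with limma an adjusted p of 0.0274), or 2.72-fold, at the probe on chromosome 9 from 57990527 to 57990586 in mm7. It was 2.04 from the Cy5 signal alone, and it missed the threshold (adjusted p = 0.0587) with every local background as measured and without miR-23b/27b/24 replicate 1 or 2 (adjusted p = 0.0597 and 0.106); over 17 settings the adjusted p lay between 0.0235 and 0.106.

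Sema3e fell. It is a secreted class 3 semaphorin that binds plexin D1 directly, without a neuropilin. The log2 ratios were 1.64 and 1.12 in the vector cells and -0.43 and -0.08 in the miR-23b/27b/24 cells, so the gene moved from above the reference to slightly below it. The difference was -1.64 ± 0.23 (SE, n = 2 in each group, with limma an adjusted p of 0.0239), or 3.11-fold lower, at the probe on chromosome 5 from 13734861 to 13734920 in mm7. A dimmer probe of Sema3e gave log2 ratios of 0.91 and 0.85 against 0.56 and 0.55, a difference of -0.32, and the third probe was not above background; a transcript that the array calls 6430702L12, and RefSeq lists under Sema3e, differed by -1.24 ± 0.28 (SE, limma adjusted p = 0.0638). The mean of the passing probes named Sema3e gave -0.98, and the call was lost under median centring (adjusted p = 0.0533) and without miR-23b/27b/24 replicate 1 or 2 (adjusted p = 0.154 and 0.0973; range over 17 settings 0.00791 to 0.154).

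**Figure D2:**
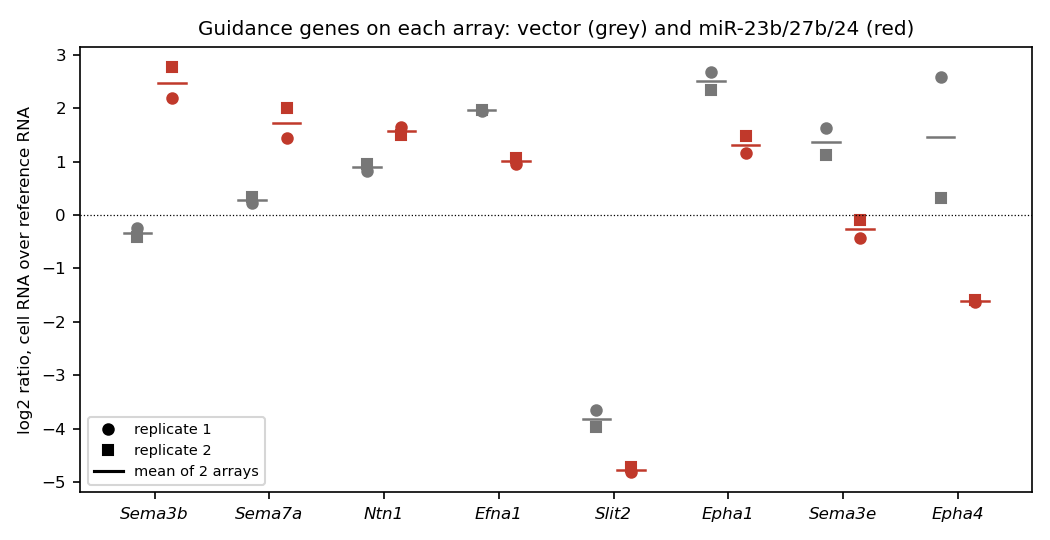
Log2 ratio of cell RNA over reference RNA (y axis) on each array for the 7 genes that passed the test and Epha4 (x axis), with vector in grey, miR-23b/27b/24 in red, circles for replicate 1, squares for replicate 2 and a line at each group's mean. The groups do not overlap for any of the 8 genes, which were picked by their values, and do not overlap for 59.8% of all genes. The vector arrays of Epha4, at 2.58 and 0.33, are the farthest apart.

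The other class 3 semaphorins did not pass. Sema3c had log2 ratios of -1.31 and -0.61 in the vector cells and -0.14 and 0.12 in the miR-23b/27b/24 cells, a difference of 0.95 ± 0.27 (SE, limma adjusted p = 0.0964), and its dimmer probe gave 0.69. Sema3g differed by 0.68 ± 0.14 (SE, limma adjusted p = 0.0547). For both genes the 2 groups did not overlap. Sema3a, the classical repellent that acts through neuropilin 1, was far below the reference on every array, from -2.77 to -2.50, and differed by 0.15. With every local background as measured it differed by -0.83 (limma adjusted p = 0.336), so its sign turned. Sema3f, a ligand of neuropilin 2, was above the reference on every array, from 0.92 to 1.46, and differed by -0.18. Sema3d gave no signal above background on any array.

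None of the membrane semaphorins of classes 4, 5 and 6 passed, and 1 (Sema5a) had an unadjusted limma p under 0.05, beside 27.7% of all genes. Of class 4, the 6 measured genes were Sema4a, Sema4b, Sema4c, Sema4d, Sema4f and Sema4g. Their tested probes had log2 fold changes between -0.10 and 0.37, the highest for Sema4a. With every local background as measured Sema4a differed by -0.17. Sema4d, a ligand of plexin B1, differed by -0.08 at its tested probe, with log2 ratios from -0.18 to 0.07 over the 4 arrays. Its dimmer probe gave -0.22 and -0.26 on the vector arrays against -0.77 and -0.67 on the others. That was a difference of -0.48 with no overlap, so the value for Sema4d depended on the probe. Of class 5, Sema5a had log2 ratios of -0.91 and -1.34 against -0.30 and -0.36, a difference of 0.79 ± 0.18 (SE, limma adjusted p = 0.0650), and Sema5b differed by -0.12. Of class 6, whose members bind A-type plexins, Sema6a, Sema6b, Sema6c and Sema6d had log2 fold changes between -0.38 and 0.22. Sema6d differed by 0.00 on average, while its vector arrays stood at 0.91 and -0.08. These vector arrays lay farther apart than any group difference in classes 4 to 6.

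Among the plexins, which bind semaphorins and carry a GTPase-activating domain inside the cell, 0 of 7 measured genes passed; 1 had an unadjusted p under 0.05, beside 27.7% of all genes. Plexin B2, whose probe was the brightest of the family, had log2 ratios of -0.38 and -0.62 in the vector cells and -0.29 and -0.35 in the others (Plxnb2, 0.18 ± 0.14, SE, 95% interval -0.18 to 0.54). In the main setting the interval leaves out a change of 1.5-fold in either direction. With median centring the difference of Plxnb2 was 0.21 ± 0.21 (SE), which is too wide to leave such a change out. Plxna1 had the largest fold change of the family, -0.56 ± 0.40 (SE, limma adjusted p = 0.430), and it came from 1 array. Vector replicate 2 stood at 1.04, while vector replicate 1 and the miR-23b/27b/24 arrays lay between -0.20 and -0.02. Without vector replicate 2 the difference was 0.02, without vector replicate 1 it was -1.15 (limma adjusted p = 0.0106), and the second probe of Plxna1 gave 0.46. Plxna4 differed by -0.45 with no overlap of the groups (limma adjusted p = 0.121), and Plxnb1, the receptor of Sema4d, by 0.46 with overlap. Plxna2, Plxna3 and Plxnb3 differed by 0.13, 0.15 and -0.06. With every local background as measured these values were -0.76, -0.42 and -0.18, so the sign turned for Plxna2 and Plxna3. Plexin C1, the receptor of Sema7a, was above background on only 1 array of each group and was not tested; its log2 ratios lay between -2.37 and -1.95, far below the reference. Plexin D1, the receptor of Sema3e, was not analysed here. Of the neuropilins, Nrp2 had log2 ratios of 1.80 and 2.15 in the vector cells and 0.95 and 0.63 in the others, a 2.26-fold fall (limma adjusted p = 0.0319), and Nrp1 differed by 0.04. Nrp2 was singled out after its values were seen; it passed in 14 of 17 settings (adjusted p between 0.0111 and 0.164), and neither without miR-23b/27b/24 replicate 1 nor without replicate 2.

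Among the ephrins, 1 of 8 passed (12.5%, beside 9.43% of all genes). Efna1, a lipid-anchored ligand of Epha2 and other EphA receptors, had log2 ratios of 1.95 and 1.97 in the vector cells and 0.96 and 1.07 in the miR-23b/27b/24 cells. All 4 arrays lay above the reference, and the replicates of each group nearly coincided. The difference was -0.94 ± 0.12 (SE, n = 2 in each group, with limma an adjusted p of 0.0190), or 1.92-fold lower, at the probe on chromosome 3 from 89398658 to 89398717 in mm7. With every local background as measured it was -0.48 (adjusted p = 0.322), and without miR-23b/27b/24 replicate 1 or 2 the adjusted p was 0.172 and 0.126 (0.0133 to 0.322 over 17 settings). Efna5, the brightest probe among the ephrins, had 0.44 and 0.34 against 0.10 and -0.63, a difference of -0.66 ± 0.26 (SE, limma adjusted p = 0.194). The B-type ephrins, which cross the membrane, were higher on average in the miR-23b/27b/24 cells by 0.34 for Efnb1, 0.57 for Efnb2 and 0.22 for Efnb3, and none passed. The groups overlapped for Efnb1 and not for Efnb2, whose second probe gave 0.52. Efna2, Efna3 and Efna4 differed by 0.22, 0.17 and 0.03.

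Of the 11 measured Eph receptors 1 passed (9.09%, beside 9.43% of all genes). A log2 fold change above 0 was found for 1 of the 11, beside 45.8% of all genes. Without miR-23b/27b/24 replicate 1 it was 5 of 11 and without vector replicate 1 it was 3 of 11. Among the genes below 0 in the main setting, Epha4 and Epha6 entered the test only through the vector arrays. The filter thus favoured their sign, and the count is not read as a result. Epha1, an EphA receptor found in epithelia, had log2 ratios of 2.69 and 2.34 in the vector cells and 1.16 and 1.47 in the miR-23b/27b/24 cells. The gene stayed above the reference on every array, and the groups did not overlap. The difference was -1.2 ± 0.19 (SE, n = 2 in each group, with limma an adjusted p of 0.0300), or 2.29-fold lower, at the probe on chromosome 6 from 42301566 to 42301625 in mm7. It was -0.72 and missed the threshold (adjusted p = 0.117) with every local background as measured, and it missed it too with median centring (adjusted p = 0.0593) and without miR-23b/27b/24 replicate 1 or 2 (adjusted p = 0.191 and 0.114; range over 17 settings 0.0154 to 0.191). The epithelial markers Krt7, Krt19, Epcam and Cdh1 fell in the same cells, with log2 fold changes of -4.49, -4.03, -3.61 and -2.95, while Krt18 (-1.40) and Krt8 (0.30) did not pass; their part in the values of Epha1 and Efna1 was not tested.

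Epha4, a receptor for both A-type and B-type ephrins, had the largest fitted difference of the measured guidance genes and did not pass. Its log2 ratios were 2.58 and 0.33 on the vector arrays and -1.63 and -1.60 on the others. The vector arrays differed from each other by more than 2 on this scale. In the miR-23b/27b/24 cells the probe was not well above background on either array, so only a bound can be given, which in the main setting was at least 8.4-fold lower (log2 -3.07 ± 0.73, SE, limma adjusted p = 0.0705); this takes the smaller of the fold in the Cy5 channel, against the lowest signal above background, and the fold of the ratio. The bound holds for these arrays and this setting only: the fitted log2 fold change was -1.94 when vector replicate 1 was left out, -4.19 when replicate 2 was, -2.36 with every local background as measured, -1.80 with the mean of the probes and -5.95 in the authors' deposited values. The gene entered the test only through the vector arrays, where it was high, so no call under any setting is read from it. Its second probe gave -0.54.

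Epha2, the EphA receptor with the brightest probe, had log2 ratios of 1.65 and 1.73 against 1.28 and 1.88. The groups overlapped, and the difference was -0.11 ± 0.23 (SE, 95% interval -0.70 to 0.48). Without miR-23b/27b/24 replicate 1 it was 0.19. Ephb2 had 1.17 and 1.30 against 0.17 and 0.80, a difference of -0.75 ± 0.24 (SE, limma adjusted p = 0.122), and its second probe gave -0.24. Ephb6, a receptor without kinase activity, differed by -0.61 with no overlap. Ephb4, the receptor of Efnb2, was the 1 Eph receptor with a positive value, 0.26, with log2 ratios from 0.90 to 1.41. Epha3, Epha5, Epha6, Epha8 and Ephb3 differed by between -0.31 and -0.02. Epha7, Epha10 and Ephb1 gave no cell signal well above background on any array.

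**Figure D3:**
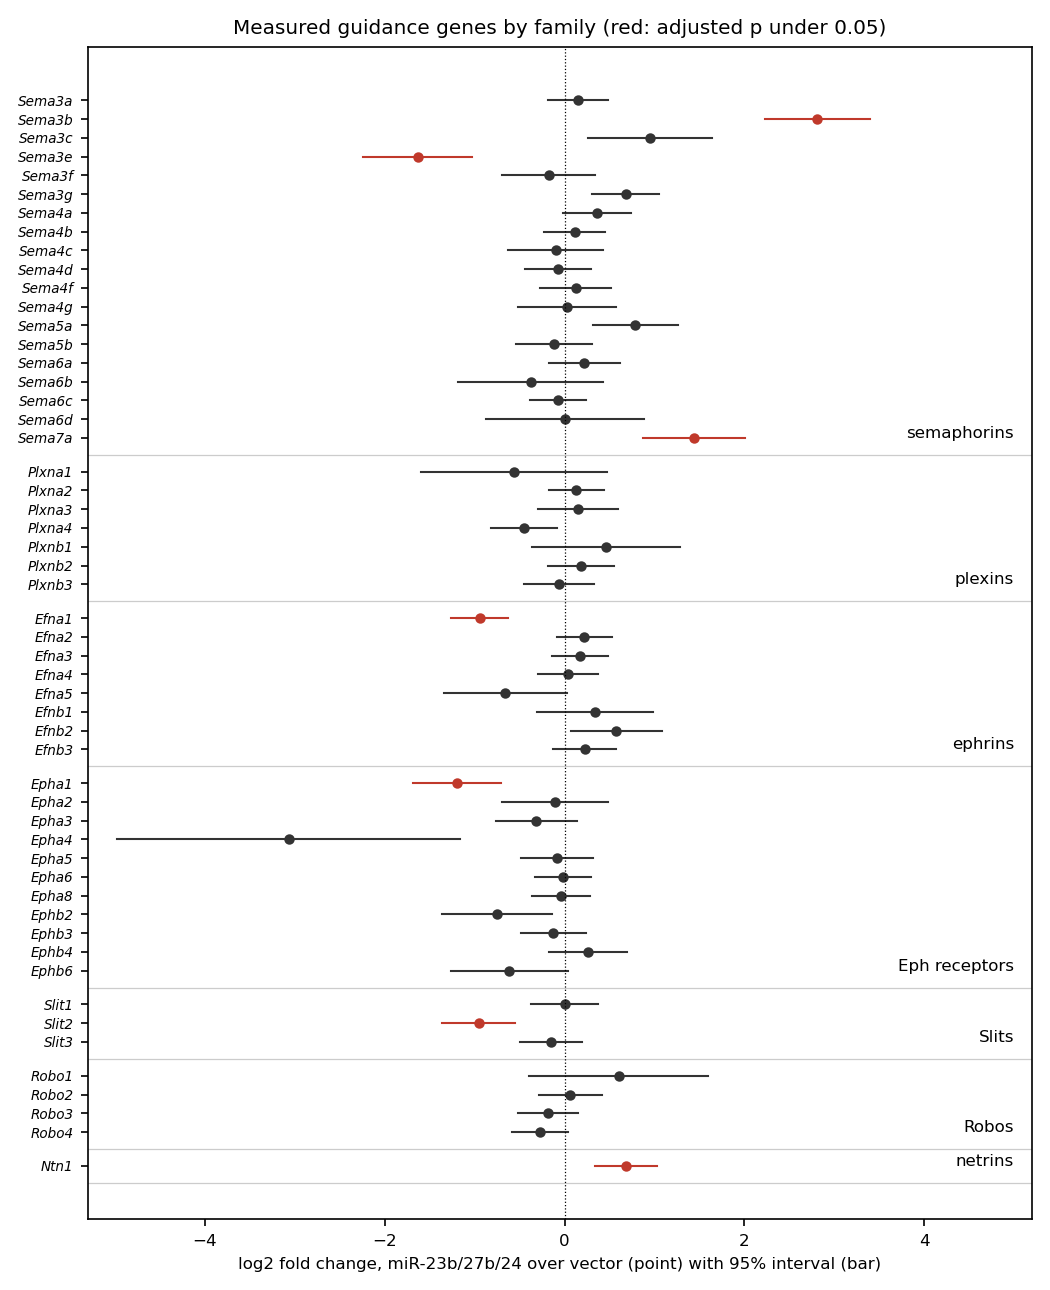
Log2 fold change of miR-23b/27b/24 over vector cells (x axis, points) with its 95% interval (bars) for the 53 measured guidance genes by family (y axis), with red for an adjusted p under 0.05. The 3 red genes to the right are Sema3b, Sema7a and Ntn1, the 4 to the left are Sema3e, Efna1, Epha1 and Slit2, and Epha4 has the widest interval.

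Of the Slits, the secreted ligands of Robo receptors, Slit2 fell from a low level. Its tested probe had log2 ratios of -3.66 and -3.97 in the vector cells and -4.81 and -4.72 in the miR-23b/27b/24 cells, so both groups had far less than the reference. The Cy5 signal was 261 and 186 against 92 and 96, beside a Cy3 signal between 3689 and 4465. The difference was -0.96 ± 0.16 (SE, n = 2 in each group, with limma an adjusted p of 0.0323), or 1.94-fold lower, at the probe on chromosome 5 from 47631141 to 47631200 in mm7. The other passing probes of Slit2 gave -0.29 and -0.05, and the mean of the probes gave -0.43 (adjusted p = 0.0993). With every local background as measured the difference was -1.77 (adjusted p = 0.131), and it missed the threshold with median centring (adjusted p = 0.0638) and without miR-23b/27b/24 replicate 1 or 2 (adjusted p = 0.222 and 0.159; range over 17 settings 0.0123 to 0.222). Slit3 was also below the reference on every array, from -3.71 to -3.42, and differed by -0.15. With every local background as measured it differed by -1.03 (limma adjusted p = 0.221). Slit1 had the same mean in both groups to 2 decimals.

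No Robo receptor passed, of 4 measured, and 0 had an unadjusted p under 0.05, beside 27.7% of all genes. Robo1 had log2 ratios of -0.22 and -1.14 in the vector cells and -0.40 and 0.26 in the others, with overlap, a difference of 0.61 ± 0.38 (SE, 95% interval -0.39 to 1.60). Its second probe gave -0.02. Robo4, known from endothelium, had 0.34 and 0.40 against 0.12 and 0.07, a difference of -0.27 (limma adjusted p = 0.224). Robo2 and Robo3 differed by 0.07 and -0.19, and each was above background on 1 of the 2 miR-23b/27b/24 arrays.

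Ntn1, a secreted laminin-related cue, rose from log2 ratios of 0.82 and 0.96 to 1.65 and 1.5. The replicates of each group lay close together and the groups did not overlap. The difference was 0.68 ± 0.13 (SE, n = 2 in each group, with limma an adjusted p of 0.0458), or 1.6-fold, at the probe on chromosome 11 from 68291883 to 68291942 in mm7. It passed in 8 of 17 alternative settings, with values between 0.61 and 1.14 and adjusted p between 0.0378 and 0.303; without miR-23b/27b/24 replicate 1 or 2 the adjusted p was 0.303 and 0.186, and with the replicate number as a block 0.0771. Ntn4 was above background on 1 vector array and was not tested. Outside the rule, the array carried Ntn3 under the name Ntn2l and Ntn5 under the name Gm484. Ntn3 had log2 ratios of -0.45 and -0.57 against 0.81 and 0.87, a rise of 1.35 ± 0.12 (SE, n = 2 in each group, with limma an adjusted p of 0.00887), and Ntn5 differed by -0.01. With both counted as netrins, 8 of 55 measured guidance genes passed, beside 9.43% of all genes in the main setting.

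The receptors of netrins and the other partners were taken from a list of co-receptors and cytoplasmic effectors. Of 84 measured genes of that list 12 passed, 3 higher and 9 lower, which is 14.3% beside 9.43% of all genes, with a median log2 fold change of -0.06. Of the netrin receptors, Unc5b fell from 1.52 and 1.30 to -0.40 and -1.04, a 4.4-fold difference (limma adjusted p = 0.0153), while Unc5a, Unc5c and Unc5d differed by -0.11, 0.03 and 0.01. Neo1, which encodes neogenin, was 1.8-fold higher (limma adjusted p = 0.0461), from 0.52 and 0.15 to 1.22 and 1.17. Rgma, a lipid-anchored ligand of neogenin, rose most, from -0.84 and -0.88 to 1.47 and 1.72, a 5.5-fold difference (limma adjusted p = 0.00339). Dcc was not measured. Of the effectors, Nfatc4, a transcription factor, was 2.7-fold higher. Ablim1, an actin-binding protein, fell from -0.42 and 0.26 to -2.05 and -2.07, 3.9-fold lower (limma adjusted p = 0.0184). Rnd1, a small GTPase that binds plexins, fell from 1.27 and 1.21 to -0.51 and -0.33, 3.2-fold lower (limma adjusted p = 0.00637). Ngef, the exchange factor ephexin that works downstream of Epha4, was 2.6-fold lower (limma adjusted p = 0.0101). Its log2 ratios were 1.06 and 1.06 against -0.39 and -0.19. Nfatc4, Ablim1 and Rnd1 each passed in 15 of 17 alternative settings and Ngef in 14. Rgma passed in all 17 alternative settings, with values between 2.34 and 2.58, and Neo1 in 8. Without miR-23b/27b/24 replicate 1 the list kept Rgma and Unc5b, without replicate 2 Rgma alone, and with every local background as measured or with median centring 7 genes of the list passed.

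Probes of the same gene give a check that does not rest on more arrays. Of the 109 probes of guidance genes 80 passed the filter, and 25 genes had more than 1 passing probe. In 19 of the 25 the probes had the same sign and in 6 they did not (Plxna1, Robo1, Sema3f, Sema4c, Sema5b and Sema6c). Of the genes that passed the test, Sema3e and Slit2 had several passing probes, of 1 sign and unequal size, while Sema3b, Sema7a, Efna1 and Epha1 had 1 probe each and Ntn1 had 1 that passed. Plxna3 had probes at 0.15 and 1.2, the latter with miR-23b/27b/24 replicate 1 at 1.62 and its other arrays between -0.62 and -0.19.

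**Figure D4:**
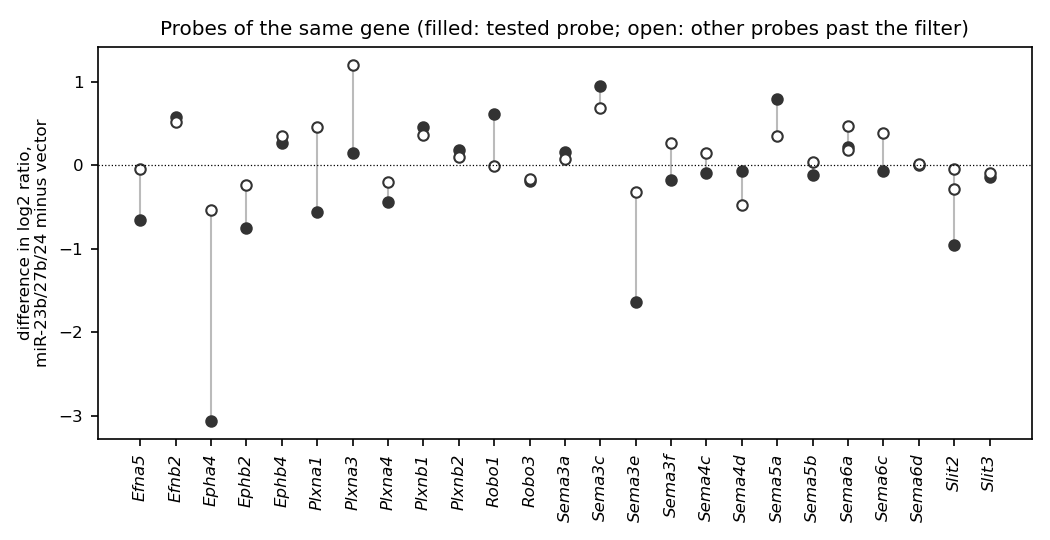
Difference in log2 ratio between miR-23b/27b/24 and vector cells (y axis) for every passing probe of the 25 guidance genes that had more than 1 (x axis), with the tested probe filled and the others open. The tested probes of Epha4 (-3.07), Sema3e (-1.64) and Slit2 (-0.96) lie below the other probes of these genes.

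Spot brightness bears on what could be called. With the mean Cy5 signal over the arrays split at 200, a value set after the data were seen, 6 of 31 brighter guidance genes passed (19.4%, beside 13.1% of all brighter genes) and 1 of 22 dimmer ones (4.55%, beside 3.59%). The 2 groups had no overlap in 56.6% of the measured guidance genes, beside 59.8% of all genes. In 22 of 53 the vector arrays lay farther apart than the groups did, and in 18 of 53 the sign turned when 1 array was left out. No share of all genes is given beside these last counts, so they are not read as particular to guidance genes.

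**Figure D5:**
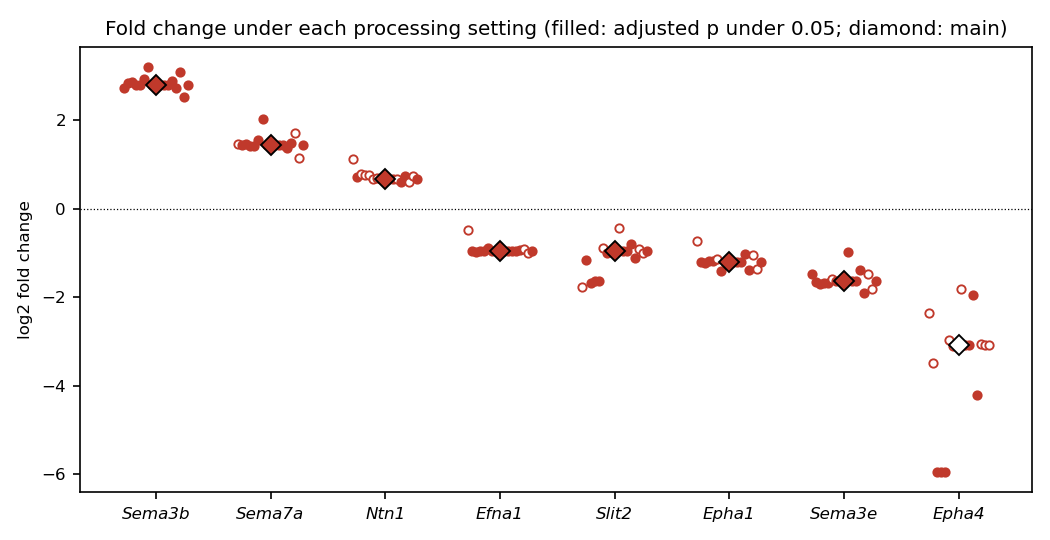
Log2 fold change (y axis) of the 7 genes that passed and Epha4 (x axis) in the main setting (diamond) and each alternative setting (circles), filled where the adjusted p was under 0.05. Sema3b is filled in all settings and lies between 2.53 and 3.20, Ntn1 is filled in 8 of 17 alternatives, and Epha4 runs from -5.95 to -1.80.

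Promoters are shown for genes that passed as background on these genes, and the array does not show at which step a transcript changed. The RefSeq table of GRCm38.p6 gave windows of 300 bases, from 250 before to 50 after a transcript start, for 5 of the 7 genes, and 4 of them are printed 5′ to 3′ on the strand of the gene. They lie at chr9:57939862-57940161 (plus strand) for Sema7a, chr5:14025026-14025325 (plus strand) for Sema3e, chr6:42373219-42373518 (minus strand) for Epha1 and chr3:89280902-89281201 (minus strand) for Efna1, the upstream of its 2 starts. Capitals mark matches to any of the motifs searched on both strands.
Sema7a: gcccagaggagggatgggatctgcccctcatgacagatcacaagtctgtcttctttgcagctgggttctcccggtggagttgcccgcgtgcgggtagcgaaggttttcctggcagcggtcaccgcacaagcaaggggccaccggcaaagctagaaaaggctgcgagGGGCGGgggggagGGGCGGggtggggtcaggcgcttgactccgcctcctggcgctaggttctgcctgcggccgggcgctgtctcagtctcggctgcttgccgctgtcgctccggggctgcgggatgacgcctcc
Sema3e: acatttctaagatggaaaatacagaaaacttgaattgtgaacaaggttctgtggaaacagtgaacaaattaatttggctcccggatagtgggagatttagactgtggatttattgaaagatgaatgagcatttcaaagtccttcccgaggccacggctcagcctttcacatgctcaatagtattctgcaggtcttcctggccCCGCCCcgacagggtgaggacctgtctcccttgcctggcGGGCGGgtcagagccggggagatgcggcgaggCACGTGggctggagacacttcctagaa
Epha1: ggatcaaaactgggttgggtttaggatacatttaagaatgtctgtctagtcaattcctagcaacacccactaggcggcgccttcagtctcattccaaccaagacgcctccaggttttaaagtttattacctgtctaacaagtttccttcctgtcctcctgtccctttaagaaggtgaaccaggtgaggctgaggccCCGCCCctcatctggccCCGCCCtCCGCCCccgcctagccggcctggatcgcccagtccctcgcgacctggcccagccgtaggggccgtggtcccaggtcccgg
Efna1: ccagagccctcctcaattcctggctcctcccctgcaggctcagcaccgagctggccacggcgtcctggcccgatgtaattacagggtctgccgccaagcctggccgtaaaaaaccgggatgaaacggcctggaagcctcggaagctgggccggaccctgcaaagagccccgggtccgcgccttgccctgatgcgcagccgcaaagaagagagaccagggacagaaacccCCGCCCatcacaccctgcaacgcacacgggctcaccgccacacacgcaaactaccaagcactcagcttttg
The motifs were the GC box GGGCGG, the TATA box TATAAA, the CAAT box with the letters CCAAT, the E-box CACGTG, an Egr motif GCGTGGGCG, an AP-1 motif TGANTCA, the cAMP response element TGACGTCA and an interferon response motif; none of these strings contains another. The capitals are GC boxes, with 2 in Sema7a, 2 in Sema3e, 3 in Epha1 and 1 in Efna1, and 1 E-box in Sema3e. Of all 59 guidance genes, measured or not, 51 had a window, and the measured ones had 60 windows. A GC box was present in 35.7% of all 32841 windows and in 42 of these 60, and an E-box in 7.15% and in 5 of 60. The TATA box was present in 13.6% of all windows and in 2 of 60, CCAAT in 37.4% and in 16 of 60, the AP-1 motif in 7.81% and in 3 of 60, the Egr motif in 0.612% and in 2 of 60, the cAMP response element in 1.79% and in 1 of 60, and the interferon response motif in 3.44% and in 1 of 60. The printed windows held between 50.7% and 67.3% G and C, beside a median of 52.7% over all windows. The window of Slit2, which is not printed, held 3 GC boxes, 1 TATA box and 68% G and C. The array does not report on these stretches, and a match is a description of letters only.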

How the data were processed

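Per the labels' protocols, cell RNA was labelled with Cy5 and reference RNA with Cy3 on all 4 arrays, with no dye swap. Agilent Feature Extraction 9.5.3.1 is named in the submitters' processing notes; per the file headers, the deposited files give mean signals, local backgrounds and processed signals as intensity and the log10 ratio of Cy5 over Cy3. The authors' deposited value table holds log2 ratios centred on each probe's median, with 87.3% to 87.8% of values within 0.001 of the scanner ratio so treated; its column medians were 0.0133, -0.0172, 0.0221 and -0.0149, and its direction was Cy5 over Cy3.

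Mean signals were corrected in R 4.3.3 with limma 3.58.1 by normexp with an offset of 50, after local backgrounds marked as outliers had been replaced by the array median, and normalized by loess with control spots at weight 0. The offset draws low signals together, so folds of dim genes are understated. Outlying spots were removed and repeated spots averaged. Of 41174 gene probes 30077 were kept, those whose Cy5 signal was well above background on each array of at least 1 group, and the probe with the highest mean intensity stood for its gene. Names came from a RefSeq table of GRCm38.p6; all 59 guidance genes kept their name. The test was limma's lmFit with eBayes, with 2.83 prior and 2 residual degrees of freedom, over 20514 genes, and the script was tested on simulated data. Arrays of a group are transfection replicates of a line, so p-values measure the spread between these.

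The members, the lists and the replacement of outlying backgrounds were chosen with earlier results of these data known. Named with array values were genes that passed or had only a bound, in each family the brightest and the most different measured gene, and up to 4 partners per direction; other names were added after values were seen. Same-numbered arrays had deviations correlated at 0.0463, and the numbers were not treated as pairs.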

Additional observations from a re-analysis of the deposited data

How the results depend on the processing

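There were 17 alternative settings, 16 of them planned; membership by current RefSeq symbol, which gave 8 guidance genes, was chosen after seeing the data. With every local background as measured 2 guidance genes, 7 partners and 635 of all genes passed, and with median centring 3, 7 and 1263, against 7, 12 and 1935. Leaving out 1 array gave 1 to 12 guidance genes, 1 to 18 partners and 222 to 4592 of all genes (a lone array is then taken to vary as the pair of arrays does). The cause of these shifts was not tested. With 1 array left out Plxna1 ran from -1.15 to 0.022, turned without vector replicate 2, and Epha2 from -0.41 to 0.19, turned without miR-23b/27b/24 replicate 1. None of the 7 genes that passed turned its direction in any setting, and they passed in 17 of 17 settings for Sema3b, 14 for Sema7a, Sema3e and Efna1, 13 for Epha1, 12 for Slit2 and 8 for Ntn1. With every local background as measured, some genes that did not pass turned sign, among them Sema3a and Plxna2. Epha4 had no value under the stricter filter. The replicate block gave 7 guidance genes, 10 partners and 1763 of all genes. It dropped Ntn1 (limma adjusted p = 0.0771) and added Epha4, whose call is not read because it entered the test only through the vector arrays. All 4 arrays lay on 1 slide, so slide could not be a block. The number of arrays and the permissive flag for signal above background limit what can be said of dim genes.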
